A study of Drosophila melanogaster with 2 samples.

Results

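The genes described here are 10 maternal and gap genes of Drosophila melanogaster, taken as a fixed list of names: bcd, nos and cad, which act first and from the mother's RNA, the trunk and head gap genes hb, Kr, kni, knrl and gt, and the terminal gap genes tll and hkb. All 10 were found in the annotation of build dm6, among 13968 protein-coding genes, where nos stands under its full name nanos. The window of a gene was its body plus 10 kb on either side, and the 10 windows covered 262.8 kb without overlap. The windows held 13 of the 5921 peak summits in the list that passed the authors' irreproducible discovery rate (IDR) threshold.

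The data are chromatin immunoprecipitation peaks of ATbp, whose name stands for A+T-rich binding protein and which carries zinc fingers. There is 1 group of 2 biological replicates. Both came from embryos of the transgenic strain ATbp-GFP, which carries green fluorescent protein at the C-terminal end of ATbp, and an antibody against that tag was used on whole embryos of mixed sex aged 0 to 14 h. A relaxed list of 30000 peaks exists for each replicate and for the pool of both, and the IDR peaks were the 5921 with the highest signal in the pooled list. The signal is the authors' own and its scale is not stated in the labels, so peaks are compared by rank, where 1 is the strongest of a list. No other group or control library was analysed here, so no condition could be compared, and the depth is unknown. The embryos span early patterning and later organ formation, so a site bound strongly in few cells or for a short time and one bound weakly in most cannot be told apart.

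In the early fly embryo, bcd RNA lies at the anterior pole and nos RNA at the posterior pole, and their proteins form opposed gradients. Bicoid is a homeodomain protein that activates genes such as hb and blocks translation of cad RNA, while Nanos is an RNA-binding protein that represses hb RNA. The gap genes read these gradients, encode transcription factors of their own, repress each other and thereby place the stripes of the pair-rule genes. Their control regions lie mostly in the non-coding DNA within some kilobases of each gene.

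The sequences below are those under the summits that the results turn on, read from the reference genome on build dm6 in the direction of the named gene, with capitals marking runs of at least 8 A or T bases. The bcd promoter (chr3R:6759467-6759716, minus strand) is the 250 bases before its transcription start site (TSS) and carries the IDR summit at base 63. The cad intron (chr2L:20780864-20781064, plus strand) holds the strongest IDR summit of all 10 windows at its middle base. The region downstream of nos (chr3R:19162303-19162503, plus strand) and the knrl intron (chr3L:20619140-20619340, minus strand) hold the strongest IDR summit of their windows, also at the middle base. The cad promoter (chr2L:20770481-20770730, plus strand, summit at base 71) and the region upstream of kni (chr3L:20700786-20700986, minus strand, summit at the middle base) were added after their values were seen, because their pooled summits fell just short of the IDR list. The strongest bcd summit overlaps an untranslated region of the neighbouring gene Ama and is not printed.
bcd promoter: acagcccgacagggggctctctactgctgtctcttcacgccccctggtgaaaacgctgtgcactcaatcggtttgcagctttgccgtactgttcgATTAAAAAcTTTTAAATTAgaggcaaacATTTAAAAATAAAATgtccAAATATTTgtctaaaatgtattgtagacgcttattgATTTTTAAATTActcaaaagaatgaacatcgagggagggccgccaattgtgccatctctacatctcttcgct
cad intron: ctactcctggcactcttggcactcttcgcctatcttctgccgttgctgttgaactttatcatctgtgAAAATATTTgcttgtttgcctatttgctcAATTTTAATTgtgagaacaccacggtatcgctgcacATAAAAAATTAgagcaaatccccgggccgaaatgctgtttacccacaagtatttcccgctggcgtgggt
nos downstream: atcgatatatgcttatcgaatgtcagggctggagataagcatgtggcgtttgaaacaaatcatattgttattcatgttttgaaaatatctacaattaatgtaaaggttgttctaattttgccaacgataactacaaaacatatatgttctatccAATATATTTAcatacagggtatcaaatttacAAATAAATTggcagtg
knrl intron: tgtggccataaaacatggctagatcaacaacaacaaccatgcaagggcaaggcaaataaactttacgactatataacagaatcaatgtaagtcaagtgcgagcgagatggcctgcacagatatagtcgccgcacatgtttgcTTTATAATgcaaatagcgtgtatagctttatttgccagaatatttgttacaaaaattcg
cad promoter: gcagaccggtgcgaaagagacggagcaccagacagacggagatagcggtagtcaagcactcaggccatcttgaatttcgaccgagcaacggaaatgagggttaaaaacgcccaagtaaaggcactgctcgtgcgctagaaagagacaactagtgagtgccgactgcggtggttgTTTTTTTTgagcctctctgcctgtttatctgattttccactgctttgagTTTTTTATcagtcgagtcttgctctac
kni upstream: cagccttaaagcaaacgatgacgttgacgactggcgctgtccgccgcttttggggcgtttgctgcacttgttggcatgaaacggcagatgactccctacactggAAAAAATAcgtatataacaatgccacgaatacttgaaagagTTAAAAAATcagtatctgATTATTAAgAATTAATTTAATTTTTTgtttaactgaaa
The bcd promoter had 5 such runs in 250 bases and was 58.8% A+T over that length. The runs were clustered between the TSS and the pooled summit, which lay 188 bp upstream of the TSS. The replicate 1 summit, 120 bp upstream, lay among the runs, and the replicate 2 summit, 213 bp upstream, lay before them. The kni region had 4 runs, the longest unbroken stretch of A and T being 17 bases, all to the right of its summit as printed. The cad intron had 3 runs and 55.2% A+T, the nos region 2 and 70.1%, the cad promoter 2 and 50.8%, and the knrl intron 1 and 61.2%.

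ATbp summits of the IDR list lay near the maternal genes and near 1 gap gene. All 3 maternal genes had IDR summits in their windows, 4 each for bcd and nos and 3 for cad, while of the 7 gap genes only knrl had any, with 2. In all, 4 of the 10 genes had an IDR summit in the window. Over all protein-coding genes the share with at least 1 was 61.1%, and the median was 1 summit. Among genes with windows under 30 kb, it was 2 of the 8 such members, bcd and nos, beside 58.6% of all genes of that window length. The members' count was thus below the share of all genes in both readings, on 10 and 8 genes and with no test made. Their summit density, 4.95 IDR summits per 100 kb, was close to the 4.76 over the windows of all protein-coding genes and the 4.3 over the genome. Of the 13 summits, 11 lay in the 3 maternal windows. The maternal windows held 13.92 per 100 kb and the gap windows 1.09.

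**Figure D1:**
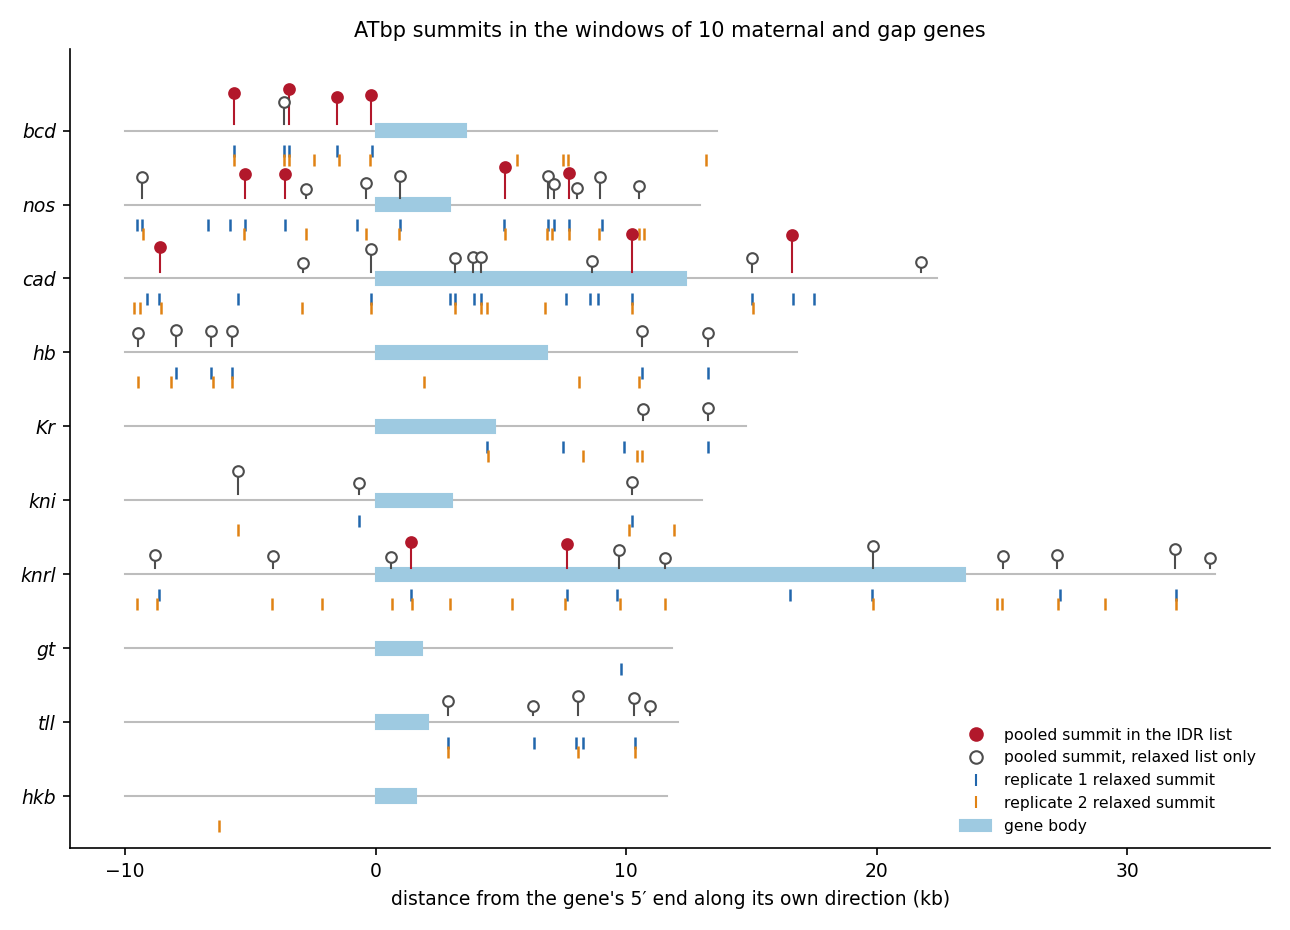
Summits in the windows of the 10 genes, with the maternal genes at the top, against distance in kb from the gene's 5′ end along its own direction. Filled circles are the 13 pooled summits in the IDR list and open circles the 44 in the relaxed list only, on stems whose length grows with the log of the signal, and ticks below each line are relaxed summits of replicate 1 (upper row) and replicate 2 (lower row). Filled circles stand at bcd, nos, cad and knrl, and gt and hkb carry no circle.

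Distances on that map run from the 5′ end of the whole gene, and those given for single summits run from the nearest of the gene's annotated TSSs, which shifts the cad intron summit slightly between them.

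Most of these summits lay at or nearest to the start of another gene. The nearest TSS belonged to the member itself at 4 of the 13 and to another gene at 9, and 3 summits lay inside a member's body. The number of other genes with a TSS in the window was 6 for bcd, 7 for nos and 1 for cad, against 3 for hkb and knrl, 2 for hb, 1 for gt and 0 for Kr, kni and tll, with a median of 6 over all protein-coding genes. The bcd and nos windows thus held more other genes than any gap window, while the cad window was within the range of the gap windows. Its part in the result was not tested.

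The gene bcd encodes the anterior morphogen and lies in the Antennapedia complex (FBgn0000166, 3R, 6755842 to 6759466, minus strand). Its 4 IDR summits all lay upstream, at 188, 1545, 3435 and 5630 bp from the TSS. The nearest, at 6759654, had a signal of 233.9 in the IDR list, with signals of 106.0 in replicate 1 and 128.1 in replicate 2. It ranked 2735 in the pooled list, 3603 in replicate 1 and 2253 in replicate 2, and was the only IDR summit within 500 bp of a TSS of any of the 10 genes. That makes 1 of 10, beside 14.9% of all protein-coding genes. The summit at 1545 bp, in intergenic DNA, had a signal of 190.8 and ranks of 3903 and 3363 in replicates 1 and 2.

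Farther upstream the bcd window reached the starts of its neighbours. The strongest summit there, at 6762901 with a signal of 384.5 and rank 1327, lay within 500 bp of TSSs of Ama, which encodes a cell adhesion protein of the immunoglobulin family, and of lncRNA:CR45593. It ranked 1366 in replicate 1 and 1534 in replicate 2, with summits 2 and 0 bp away. The summit at 6765096 (signal 281.4) lay 389 bp from the TSS of lncRNA:CR44930, inside Ama, and ranked 1477 in replicate 1 and 3867 in replicate 2. The remaining pooled summit, at 6763101 (signal 120.7, rank 6435) stayed outside the IDR list. All 5 pooled summits of bcd had a summit within 100 bp in both replicates, and none lay in the gene body or downstream. In replicate 2 alone, 5 further relaxed summits lay in the window, 4 of them in the DNA downstream of bcd, with ranks from 8462 to 25183.

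The gene nos encodes the posterior determinant (FBgn0002962, 3R, 19157238 to 19160202, plus strand), and none of its 4 IDR summits lay at its own start or in its body. Those at 19152020 and 19153641 lay 5.22 and 3.6 kb upstream, in an intron and at the promoter of CG5835. The strongest, at 19162403, lay 5.16 kb downstream of the TSS, within 500 bp of the starts of CG42359 and Nsun5, and had a signal of 284.0. It ranked 2124 in the pooled list, 1981 in replicate 1 and 2204 in replicate 2. The last, at 19164976, was in an intron of sqz, a zinc finger gene of the nervous system, with a signal of 158.1 and ranks of 3270 and 6106 in replicates 1 and 2. The summit at the CG5835 promoter (signal 144.6) ranked 3385 in replicate 1 and had no replicate 2 summit within 100 bp, the nearest being 814 bp away.

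At nos itself the signal was in the relaxed lists only. A pooled summit 970 bp downstream of the TSS, in an intron, had a signal of 113.0 and rank 6933, with ranks of 6752 in replicate 1 and 7683 in replicate 2. A weaker pooled summit, 397 bp upstream and 29 bp from the start of CG11779, had a signal of 61.1 and was matched in replicate 2 alone. The nos window held 13 pooled summits in all, more than any of the other 9 genes, of which 8 were in both replicates.

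The gene cad encodes a homeodomain protein of the posterior embryo, present as maternal and as zygotic RNA (FBgn0000251, 2L, 20770731 to 20783135, plus strand). It carried the strongest IDR summit of the 10 windows, at 20780964, in its own intron 10.07 kb from its nearest TSS. The signal there was 520.9 in the IDR list, 297.9 in replicate 1 and 219.0 in replicate 2, and the ranks were 791, 662 and 995. Of all protein-coding genes, 18.5% had a stronger pooled summit in the window, beside 27.9% for bcd and 37.5% for nos.

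The next strongest, at 20787356, lay past the end of cad, 300 bp from the TSS of Pomp, which encodes a proteasome maturation factor. It had a signal of 465.6 and rank 953, and ranked 898 in replicate 1, but replicate 2 had no summit nearer than 1568 bp among its 30000. This IDR summit was thus matched in the relaxed list of replicate 1 only. A missing peak call does not show that replicate 2 had no signal there. The weakest of the 3, at 20762119, lay 8.61 kb upstream in an intron of dia, a formin gene, with a signal of 151.9 and ranks of 8840 in replicate 1 and 3074 in replicate 2.

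At the cad promoter a pooled summit 180 bp upstream of the TSS had a signal of 127.4 and rank 5977, just under the lowest IDR signal of 128.5. It was in both replicates, at rank 5241 in replicate 1 and 7925 in replicate 2. In the strongest 5921 peaks of replicate 1 alone, 2 of the 10 genes thus had a promoter summit, bcd and cad, and in those of replicate 2 alone only bcd. The share of all genes in these single-replicate lists is not given here, so these counts are descriptions only. In the IDR list it was 14.9%. In the gene body, cad had 4 further pooled summits with signals from 43.3 to 61.9, of which 2 were in both replicates.

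The paralogs kni and knrl, which encode zinc finger proteins of the nuclear receptor family and lie 71.7 kb apart on 3L, differed in their summits. The gene knrl (FBgn0001323, 20597141 to 20620659, minus strand) had 2 IDR summits, both in its own introns. That at 20619240, 1419 bp past the TSS, had a signal of 175.6, with 98.8 in replicate 1 and 82.0 in replicate 2, and ranks of 4020, 3956 and 4075. That at 20613009, 7.65 kb past the TSS, had a signal of 141.5 and ranked 6623 in replicate 1 and 4673 in replicate 2. Together with cad, knrl made 2 of 10 genes with an IDR summit in the body, beside 13.8% of all protein-coding genes. The body of knrl is 23519 bp long and those of the other gap genes 1632 to 6843 bp. A weaker intron summit of knrl, 19.84 kb past the TSS, had a pooled signal of 120.7 and rank 6430, outside the IDR list, and was in both replicates. The knrl window held 12 pooled summits, 5 of them in both replicates and 6 in replicate 2 alone.

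The gene kni (FBgn0001320, 20692330 to 20695378, minus strand) had no IDR summit and 3 pooled ones. The strongest, 5508 bp upstream at 20700886, had a signal of 126.5 and rank 6044, the second pooled summit of the 10 windows to fall just short of the IDR list after that at the cad promoter. Replicate 2 had it at rank 5559 and replicate 1 had no summit within 100 bp. The other pooled summits of kni, 670 bp upstream and 9.42 kb past the TSS, had signals of 40.8 and 43.6 and were matched in replicate 1 alone.

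The gene hb encodes a zinc finger protein that is both maternal and zygotic and defines the anterior trunk (FBgn0001180, 3R, 8690980 to 8697822, minus strand). It had 6 pooled summits and no IDR summit. Of these, 4 lay upstream, at 5.74, 6.55, 7.97 and 9.49 kb from the TSS, with signals of 63.0, 63.6, 64.5 and 49.0, and the other 2 lay downstream. The 2 nearest upstream were in both replicates. No pooled summit lay in the gene body or within 500 bp of a TSS of hb, and a relaxed summit in its intron (signal 24.1, rank 20877) was in replicate 2 alone. Its nearest IDR summit was 14.37 kb upstream, at 8712187 (signal 180.5), 746 bp from the TSS of CG8112.

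The gene Kr, the zinc finger gap gene of the central embryo (FBgn0001325, 2R, 25226611 to 25231394, plus strand), had 2 pooled summits, both downstream, with signals of 43.3 and 46.5. Neither was in both replicates. Inside Kr, 4.46 kb past the TSS in replicate 1 and 4.5 kb in replicate 2, each replicate had a relaxed summit, 42 bp apart, with ranks of 15492 and 12660, but the pooled list had none there. The nearest IDR summit was 35.94 kb upstream.

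The gene gt encodes a basic leucine zipper repressor (FBgn0001150, X, 2427113 to 2428967, minus strand), and its window held no pooled summit. Replicate 1 had 1 relaxed summit there, 9812 bp past the TSS with a signal of 22.8 and rank 27801, and replicate 2 had 0. The nearest IDR summit was 32.25 kb away.

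Of the terminal gap genes, which respond to the Torso receptor at both poles, tll encodes a nuclear receptor (FBgn0003720, 3R, 30852315 to 30854400, plus strand). It had 5 pooled summits, all downstream of the gene. The strongest, 8094 bp past the TSS, had a signal of 94.6 and rank 8588, with ranks of 13270 in replicate 1 and 8610 in replicate 2. That at 10.33 kb (signal 79.0) and that at 2891 bp (signal 60.4) were also in both replicates. The gene hkb, which encodes a zinc finger repressor (FBgn0261434, 3R, 4345015 to 4346646, minus strand), had no pooled summit. Its window held 1 relaxed summit of replicate 2, with a signal of 20.4 and rank 27067, and 0 of replicate 1.

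With gt and hkb at 0, 8 of the 10 genes had a pooled relaxed summit, beside 88.4% of all protein-coding genes. In the pooled relaxed list as a whole, the maternal windows again held more summits per 100 kb than the gap windows. By gene the order differed from that of the IDR list. The pooled counts were 13 for nos, 12 for knrl, 11 for cad and 6 for hb. They were 5 each for bcd and tll, 3 for kni, 2 for Kr and 0 for gt and hkb. The pooled list contains the IDR summits, 11 in the maternal and 2 in the gap windows, so part of the difference between these windows is built in. The maternal windows held 29 pooled summits in 79.0 kb, or 36.71 per 100 kb, and the gap windows 28 in 183.8 kb, or 15.24, with 21.81 over the genome. Of these 57 summits 21 lay upstream of the gene, 12 in its body and 24 downstream.

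By the distance from a TSS to the nearest IDR summit, the 4 genes with an IDR summit in the window came before the other 6. Part of this order is built in, since the summits are the same. A gene with none in its window must lie more than 10 kb from one. The distance was 0.19 kb for bcd, 1.42 for knrl, 3.6 for nos and 8.61 for cad. The other 6 genes followed, with 13.39 kb for tll, 14.37 for hb, 16.23 for kni, 32.25 for gt, 35.94 for Kr and 48.7 for hkb. The median over 13945 protein-coding genes was 7.74 kb and the middle 50% ran between 2.08 and 19.11 kb. The distance was as large or larger in 8.2% of all genes for hkb, 12.3% for Kr, 14.0% for gt, 29.4% for kni, 32.9% for hb and 34.8% for tll. Thus gt, Kr and hkb lay beyond the middle 50% of genes, bcd and knrl were nearer than it, and the other 5 were inside it.

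**Figure D2:**
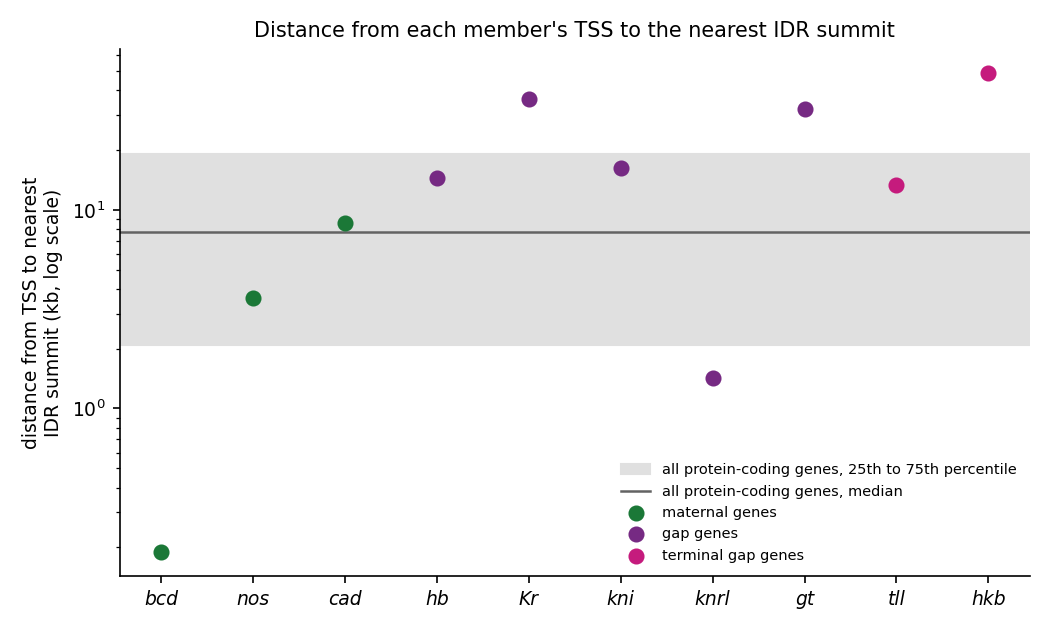
Distance in kb, on a log scale, from each gene's TSS to the nearest IDR summit, with 1 point a gene coloured by role. The grey band and line are the 25th to 75th percentile and the median (7.74 kb) of all protein-coding genes, and the points of gt, Kr and hkb stand above the band.

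The replicates found most of the IDR summits of these windows at similar ranks. Of the 13, 11 (84.6%, Wilson 95% interval 57.8 to 95.7, for counting error only) had a relaxed summit within 100 bp in both replicates, beside 92.6% of all IDR summits. Since the replicates also went into the IDR list, part of this share is built in. At the 11, the ranks in the replicates differed by a median of 1.42 times and by up to 2.88 times, and 9 were within 2-fold of each other. The largest of these differences was at the cad summit in dia. The 2 others, at the promoters of CG5835 near nos and Pomp near cad, had a relaxed summit within 100 bp in replicate 1 alone. Of all 57 pooled summits, 29 (50.9%) were in both replicates, beside 44.3% of the whole pooled list. A further 11 were matched by replicate 1 only and 13 by replicate 2 only, and 4 had no match.

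**Figure D3:**
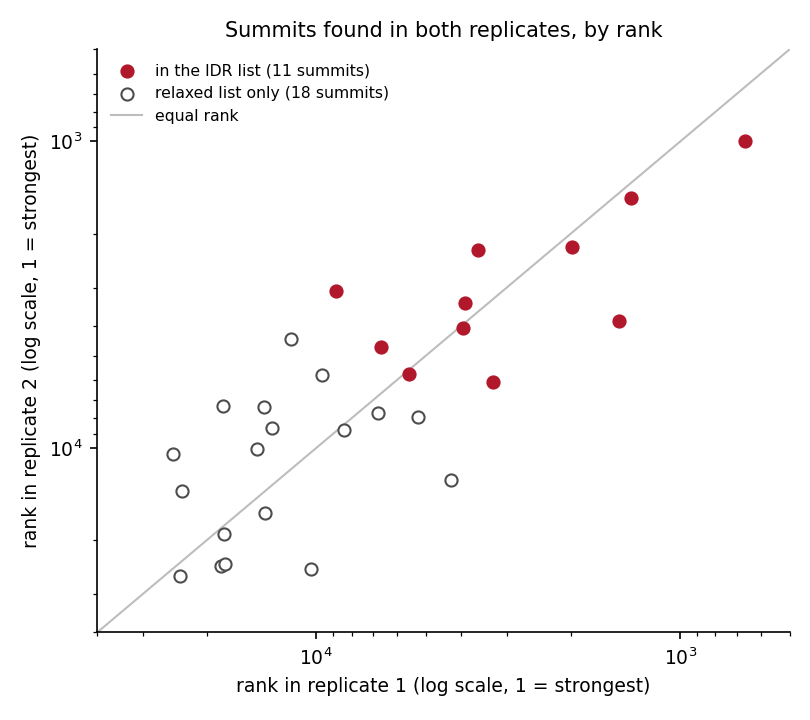
Rank in replicate 1 against rank in replicate 2, both on log scales with the strongest at the top right, for the 29 pooled summits of the 10 windows that had a summit within 100 bp in both. The 11 filled points are in the IDR list and the 18 open ones in the relaxed list only, and the point nearest the top right is the cad intron summit at ranks 662 and 995.

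By position, 6 of the 13 IDR summits were within 500 bp of a TSS of some gene, 6 were in introns and 1 in intergenic DNA. These are 46.2%, 46.2% and 7.7%, beside 34.6%, 47.2% and 15.6% of all 5921 IDR summits. The members' median rank was 3614, with the range from 791 to 5412, beside a median of 2961 over all IDR summits.

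The DNA at these summits had the A+T content of IDR summits in general. In the summit base and 50 bp on either side it averaged 65.2% ± 9.45 (SD, 13 summits of 4 genes, which are not replicates), beside 64.7% ± 9.26 over all 5921. Values ran from 51.5% at the sqz intron to 77.2% at the dia intron. The bcd promoter summit had 52.5%, beside 74.3% at its replicate 1 summit and 45.5% at its replicate 2 summit. The 44 summits of the relaxed list only averaged 60.3% ± 10.04 and ran from 38.6% to 81.2%, a range that contains that of the 13.

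**Figure D4:**
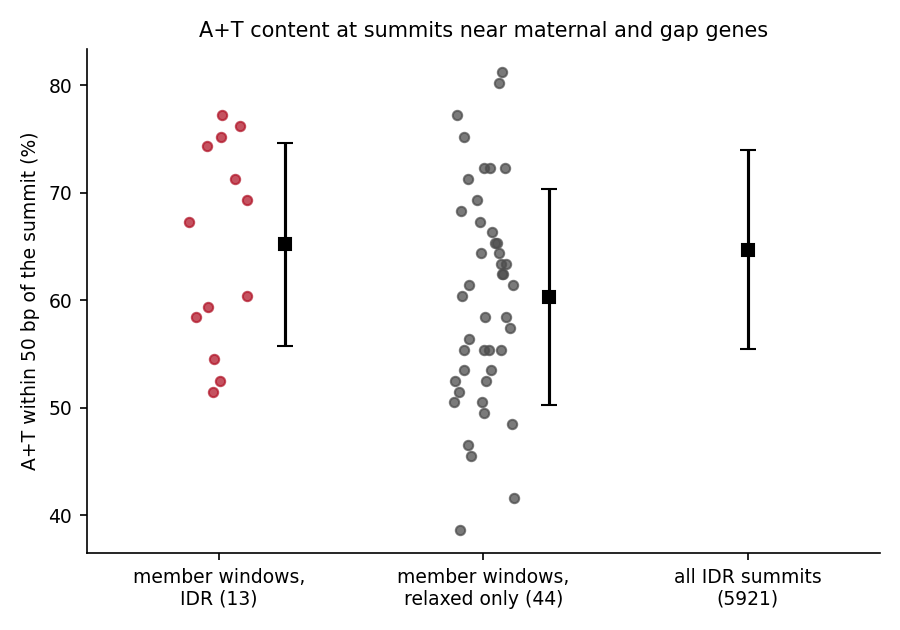
A+T content in percent within 50 bp of each summit, for the 13 IDR summits of the windows, the 44 of the relaxed list only, and all 5921 IDR summits. Points, drawn for the 2 sets from the windows, are summits, and squares with bars are means with 1 SD (65.2 ± 9.45, 60.3 ± 10.04 and 64.7 ± 9.26), which overlap.

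Short motifs were searched on both strands in the same stretch of DNA. The core TAATCC of Bicoid and the core CAGGTA of Zelda, an early activator of the zygotic genome, were each in 0 of the 13 windows, beside 2.8% and 2.1% of all IDR windows. The GAGA factor motif GAGAG was in 1, at the bcd promoter, beside 11.7%. The 6-mer CAAACA, picked because earlier results of these data had it more often at ATbp summits than in control windows, was in 6 of 13 (46.2%), beside 18.3% of all IDR windows and 11 of the 44 relaxed windows. The 6 were at Ama and lncRNA:CR44930 near bcd, at the CG5835 promoter and the sqz intron near nos, and in the introns of cad and knrl shown above. The 6-mer ACAGTG, picked in the same way, was in 1, at the sqz intron, beside 7.0%. Runs of at least 8 A or T were in 11 of 13 (84.6%), beside 70.9% of all IDR windows and 26 of the 44 relaxed windows. With 13 windows these shares are descriptions, and a match does not show a bound site.

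Other genes of the same regulatory network were counted in the same way. In a list of 22 maternal, terminal and head genes, 18 (81.8%) had an IDR summit in the window, beside 4 of the 10 genes and 61.1% of all protein-coding genes. These were all 3 anterior maternal genes, all 5 posterior maternal genes, 3 of 5 genes of the terminal system, all 5 head genes and 2 of 4 other early regulators. Those without were tor, trk, nub and pdm2, named after their values were seen. The strongest summit, of rank 153, was at cic, a repressor relieved by Torso signalling. It lay in an intron, 7.17 kb upstream of the nearest TSS of cic. That at brat, a partner of Nanos in repressing hb RNA, had rank 202 and also lay in an intron, 706 bp upstream of the nearest TSS of brat. Next were gro, a corepressor gene (rank 279, 139 bp upstream), and btd, a head gap gene (rank 392, 6.46 kb upstream, at the promoter of lncRNA:CR42657). Their windows were longer, with a median of 28 kb and up to 191.3 kb, beside a median of 23.3 kb for the 10 genes, and held a median of 5 other genes beside 1.5. The part of window length in these counts was not tested.

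The downstream layers of segmentation are the pair-rule and the segment polarity genes. Of 9 pair-rule genes 6 (66.7%) had an IDR summit in the window, beside 61.1% of all protein-coding genes. At the promoter it was 0 of the 9 and 2 of 15 segment polarity genes, beside 14.9% of all protein-coding genes. The strongest in the pair-rule windows was 1 summit of rank 144 that is shared by slp1 and slp2, 4313 bp upstream of slp2. It was followed by h (rank 1197, 8.02 kb past the TSS) and opa (rank 3162, 5.86 kb upstream). Of 15 segment polarity genes 12 (80.0%) had an IDR summit in the window. The strongest was in that of smo (rank 254, 9.9 kb upstream, at the promoter of CG17075). Then came dsh (rank 430, 4.35 kb upstream, in an intron) and fz (rank 453, 29.72 kb past its nearest TSS, in an intron). The summit of ptc (rank 573, 5.29 kb upstream) followed, in intergenic DNA. For smo, dsh and fz the TSS nearest to the summit was that of another gene. The median distance from the TSS to the nearest IDR summit was 13.88 kb for the 10 genes, 3.95 kb for the 22 network genes, 8.08 kb for the pair-rule genes and 6.7 kb for the segment polarity genes, beside 7.74 kb for all protein-coding genes. The median window was 22.5 kb for the pair-rule and 29.3 kb for the segment polarity genes, beside 23.3 kb for the 10 genes. These windows held a median of 1 and 3 other genes, beside 1.5. The part of window length was not tested, and no test of a difference between lists was made.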

How the data were processed

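The deposited files were ATbp peak lists of 2 biological replicates from 1 group. Per the submitters' listing files, each relaxed list was made from alignments and a control, the pooled one from both replicates, and the IDR list from all 3. Signal values are as deposited and were used only within a list or as ranks. The deposited −log10 q-values, recognised from the column's place in the standard peak layout, were not used for any result. The sources used here name no aligner, peak caller or IDR threshold, and give no depth. Only dm6 lists were used.

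Summits (1-based) were set against Ensembl release 115 (BDGP 6.54, transposable elements left out, 24111 TSSs of 18277 genes) and the RefSeq genome of the same release. A summit took the class that applied earliest of promoter (within 500 bp of a TSS), 5′ UTR, coding exon, intron of any transcript, 3′ UTR, any other exon and intergenic. Distances in the text are to the gene's nearest own TSS. Summits within 100 bp were matched between lists. No test was made, since there is 1 group. The symbols nos and h are annotated as nanos and hry, matched by listed synonyms. Python 3.11.15, NumPy 2.4.6, SciPy 1.17.1, pandas 2.3.3 and matplotlib 3.10.9 were used, and the counting steps were tested on simulated data.

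Members, lists, motifs and alternatives were chosen with earlier results of these data known. Named other genes are those whose TSS is nearest to, or within 500 bp of, an IDR summit of the windows or a member's nearest IDR summit, and the 4 of each list with the strongest IDR summit. Named in addition were CG11779, at a pooled summit near nos, CG17075 and lncRNA:CR42657, at summits of list genes, and tor, trk, nub and pdm2.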

Additional observations from a re-analysis of the deposited data

How the results depend on the processing

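With windows of 20 kb on either side, 7 of the 10 genes had an IDR summit (78.1% of all protein-coding genes), with 23 summits in all, and Kr, gt and hkb still had 0. With 5 kb it was 4 of 10 (45.3%). The pooled relaxed summits then numbered 103 and 34. Keeping the 2960 strongest of the 5921 IDR peaks left 6 summits, or 2.28 per 100 kb, at bcd, nos and cad, and 0 at knrl. A fall is built in, since the list is shorter. With a promoter of 250 bp, 3 of the 13 summits were at a promoter of any gene. At a limit of 50 bp, 53.8% of the 13 were matched in both replicates. The shares of all IDR summits at these 250 and 50 bp limits are not given here, so neither value describes the members apart from other summits. In the strongest 5921 peaks of a single replicate, the genes with a promoter summit were 1 without replicate 1 and 2 without replicate 2, with no share of all genes to set beside them. The nos window then held 2 summits without replicate 1 and 6 without replicate 2, that of knrl 3 and 1, and that of kni 1 and 0. Of 46 alternatives to the results on the whole set, 37 moved them by at most 1.5 times or, for shares and A+T content, less than their interval or SD. No paired analysis was possible because there is 1 group and no test. Without read depth, weak summits cannot be set against the yield of each library.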
